A study of Mus musculus with 23 samples.

Results

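The Zscan4 gene family was followed across mouse embryonic stem (ES) cells, induced pluripotent stem (iPS) cells and early embryos with altered LIN28 or let-7. Its 6 named copies, Zscan4a to Zscan4f, were taken by gene name from tables of 53715 genes, singly and as a sum, and all 6 had a row of values for all 23 samples. The samples fell into 9 groups, with 3 libraries in each of the 7 cell groups and 1 in each of the 2 embryo groups. The ES groups were wild-type (WT) cells, Lin28a-null cells, Lin28b-null cells, and the ilet7 line without doxycycline (ilet7-Ctrl) or with doxycycline for 3 days to induce let-7 (ilet7+Doxy). The iPS groups were WT cells and Lin28a/b double knockout (DKO) cells, and the embryos were a control pool and a pool injected at the zygote stage with small interfering RNA against Lin28 (siLin28). The cells grew in LIF and 2i on feeder fibroblasts that were depleted before lysis. How complete the depletion was is not known, and fibroblast and feeder markers were present in every cell library. Per the study's methods, the knockout lines came from CRISPR clones, knockout mice or knockout fibroblasts, so that the knockout and the line cannot be told apart. Doxycycline was given only to the line that carries the inducible let-7 cassette, so the drug and let-7 cannot be told apart. The labels do not say that libraries of a group were separate cultures, and p-values then measure only the spread between these libraries.

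Zscan4 genes encode proteins with a SCAN domain and zinc fingers. In the mouse they mark the 2-cell embryo, and in ES cultures they are switched on in short bursts in a small share of the cells, the 2-cell-like (2C) cells. ZSCAN4 is known for its role in telomere maintenance and genome stability of ES cells, and its transcription is activated by DUX and depends on DPPA2 and DPPA4. LIN28A and LIN28B bind RNA and keep let-7 microRNA precursors from being processed.

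All copies lie in 1 tandem cluster. In mm10, with the GENCODE M21 annotation, the cluster spanned 820 kb of chromosome 7, from 10794242 to 11614112, and held 3 further Zscan4 loci, Zscan4-ps1, Zscan4-ps2 and Zscan4-ps3, which the deposited tables list under clone names. Zscan4a lay at chr7:10794242-10799057 on the minus strand, Zscan4b at chr7:10900740-10905050 on the minus strand, and Zscan4c at chr7:11005745-11010547 on the plus strand. Zscan4d lay at chr7:11161374-11166159 and Zscan4e at chr7:11306378-11310682, both on the minus strand, and Zscan4f at chr7:11397915-11402318 on the plus strand. The annotation types Zscan4a as an unprocessed pseudogene and the other members, and the 3 further loci, as protein coding. Of the 44 other annotated genes inside the cluster, 0 were protein coding.

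The copies are nearly identical, which limits what can be said of any 1 of them. Aligned over their longest annotated transcripts, pairs of members shared between 94.9% (Zscan4d and Zscan4e) and 98.2% (Zscan4a and Zscan4c) of bases, and Zscan4c shared 99.3% with Zscan4-ps2. The deposited values count only uniquely mapped reads. Of the 150-base windows along each transcript, 87.0% of those in Zscan4d and 74.9% of those in Zscan4a occurred in no other annotated gene, against 39.0% in Zscan4c, 31.6% in Zscan4b, 22.6% in Zscan4e and 13.8% in Zscan4f (transcripts only, not the whole genome). The study's methods give a read length of 150 bases for the embryo libraries only. With 75-base windows the shares were lower, from 60.5% in Zscan4d down to 7.58% in Zscan4f. The level of a single copy is therefore uncertain, and differences between copies are given as descriptions of the tables.

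The primer pair that the study used for quantitative PCR of Zscan4 shows how the copies differ at a single place. The reverse primer matched all 9 loci without a difference, and the forward primer matched only Zscan4d in full. The sites of the forward primer in the member transcripts are shown 5′ to 3′, with capitals at bases that differ from the primer, and positions are counted from 1 at the primer's 5′ end.
Zscan4-F primer: cccttcctagtggtcgtgaatgtcttt
Zscan4a: cccttcctagtggtcTtgaatgtcttt
Zscan4b and Zscan4e: cccttTctTgtggtcTtgaatgtcttt
Zscan4c: TccttcctagtggtcTtgaatgtcttt
Zscan4d: cccttcctagtggtcgtgaatgtcttt
Zscan4-R primer, all 9 loci: ctgctgtgaagccattgtggtgac
Zscan4a carried G16T, Zscan4c carried C1T and G16T, and Zscan4b and Zscan4e carried C6T, A9T and G16T. In the Zscan4f transcripts the nearest site had 12 differences. It lay at position 603, against position 85 in the other members, so it is not the same place and no matching site was found. The further loci Zscan4-ps2 and Zscan4-ps3 had the same site as Zscan4c, and Zscan4-ps1 carried T5A and G16T.

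The starts of the copies are as alike as their transcripts. RefSeq windows of 300 bases around the start site (GRCm38.p6) were matched for 4 of the 6 members, Zscan4b, Zscan4c, Zscan4d and Zscan4f, and pairs of them shared between 95.3% and 99.3% of aligned bases. The pair that aligned over all 300 bases, at 95.7% identity, is shown 5′ to 3′ on the strand of the gene, to set the sequences near the start side by side. Capitals mark matches of 2 motifs. TGATTNAA is the core of the sequence that mouse DUX is known to bind. TATAAAA is the form of the core promoter element searched.
Zscan4b, chr7:10905001-10905300, minus strand: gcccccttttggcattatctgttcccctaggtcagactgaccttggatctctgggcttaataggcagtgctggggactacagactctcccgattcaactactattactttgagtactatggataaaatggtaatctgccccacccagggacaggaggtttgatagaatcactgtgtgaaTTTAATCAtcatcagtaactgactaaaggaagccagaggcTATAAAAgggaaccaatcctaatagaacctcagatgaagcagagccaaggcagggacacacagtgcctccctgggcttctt
Zscan4f, chr7:11397665-11397964, plus strand: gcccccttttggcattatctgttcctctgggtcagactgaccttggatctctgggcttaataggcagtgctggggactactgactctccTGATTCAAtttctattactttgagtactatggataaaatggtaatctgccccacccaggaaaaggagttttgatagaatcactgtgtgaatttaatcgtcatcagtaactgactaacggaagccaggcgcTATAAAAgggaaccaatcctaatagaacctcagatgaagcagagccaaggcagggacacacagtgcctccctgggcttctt
Each of the 4 windows held 1 TGATTNAA and 1 TATAAAA, searched on both strands. TATAAAA began 31 bases before the start in Zscan4b and Zscan4f, 54 before it in Zscan4c and 65 before it in Zscan4d. TGATTNAA began 161 bases before the start in Zscan4f, 184 before it in Zscan4c and 195 before it in Zscan4d, while in Zscan4b it lay on the opposite strand, 71 bases before the start. Over 32851 RefSeq windows of the same length, 2.87% held TGATTNAA and 5.48% held TATAAAA.

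Values are TPM, transcript abundances that are scaled to a fixed total per library and to transcript length and keep no read depth, so that the precision of low values is unknown. Between 15043 and 17923 genes reached 1 TPM in a cell library, and 14621 and 14882 did in the embryo pools. All 13 pluripotency markers were present in every cell group, with summed levels of 7941 to 9749 TPM in ES and 6070 to 6907 TPM in iPS libraries. Lin28a mRNA checked the labels only in part. It lay between 14.6 and 21.0 TPM in Lin28a-null ES cells and between 31.5 and 61.2 TPM in WT ES cells (log2 change −1.18 ± 0.27 SE, adjusted p = 0.0135), but Lin28b mRNA was higher in the libraries labelled Lin28b-null (12.5 to 13.8 TPM) than in WT ES cells (3.63 to 5.18 TPM; 1.35 ± 0.17, adjusted p = 0.00141), so the label Lin28b-null is not borne out at the mRNA level. Here and below, adjusted p-values come from limma on log2(TPM + 1), two-sided, adjusted by Benjamini-Hochberg over every gene that averaged 1 TPM or more in the libraries compared. Rose and fell are used of genes whose adjusted p was under 0.05.

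WT ES replicate 2 stood apart from the other WT ES libraries in the genes at issue. Its Zscan4 sum was 1.82 TPM against 58.8 and 66.9 TPM in replicates 1 and 3. It also had more Lin28a (61.2 against 31.5 and 32.0 TPM), less Dppa2 (48.9 against 139 and 155 TPM) and a higher summed level of fibroblast and feeder markers (4295 against 2317 and 2567 TPM). The Zscan4 results that rest on WT ES cells are therefore given with and without it, and so are the counts of the gene lists. The values of other single genes include it unless stated.

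Zscan4 transcripts were most abundant in Lin28a-null ES cells and next in iPS libraries labelled DKO, and close to the limit of the tables in the embryos (all copies in all libraries are plotted by group). The summed level of the 6 copies was 725, 786 and 728 TPM in the Lin28a-null libraries. In ilet7+Doxy cells it was 120.4, 136 and 152 TPM, and in ilet7-Ctrl cells 75.5, 77.9 and 84.1 TPM. WT ES cells came next with 58.8, 1.82 and 66.9 TPM. The libraries of these groups did not overlap, with the 2 higher WT libraries lying just below the ilet7-Ctrl libraries and replicate 2 far below them. The libraries labelled Lin28b-null had 3.86, 3.07 and 15.4 TPM, all between WT replicate 2 and the other WT libraries. In the iPS table, which was processed apart, WT cells had 6.82, 3.71 and 5.76 TPM and the libraries labelled DKO had 245, 222 and 243 TPM. No iPS library of 1 genotype came near the other.

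**Figure D1:**
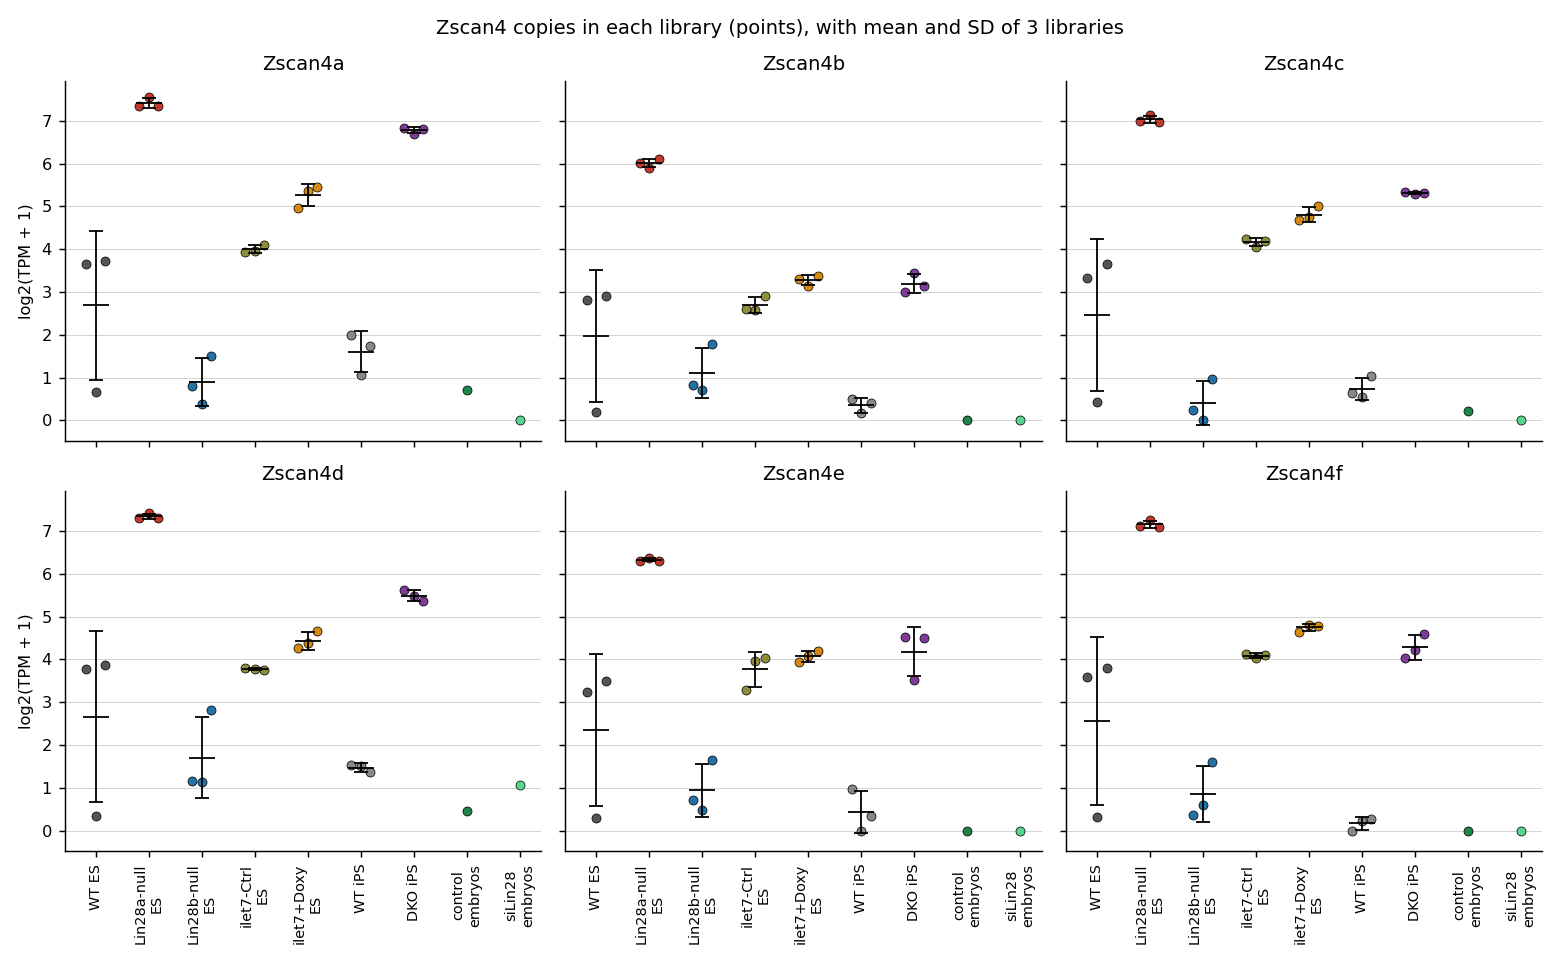
Level of each Zscan4 copy, as log2(TPM + 1), in every library. Points are libraries, and bars give the mean and the SD of 3 libraries on this scale, with single points for the 2 embryo pools. The Lin28a-null ES libraries are the highest for each copy, 1 of the 3 WT ES libraries lies far below the rest of its group, and DKO iPS libraries lie well above WT iPS libraries.

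The question of the first comparison was how Zscan4 responds to loss of Lin28a in ES cells. All 6 copies rose (20.4% of the 16060 genes tested rose), and the mean sum was 746 ± 34.5 TPM (SD, n = 3) in Lin28a-null and 42.5 ± 35.4 TPM (SD, n = 3) in WT cells, a ratio of 17.6 (11.9 without WT ES replicate 2). Zscan4a, the first copy of the cluster, was at 162, 186 and 162 TPM in Lin28a-null and at 11.6, 0.586 and 12.3 TPM in WT cells, a log2 change of 4.73 ± 0.76 (SE, adjusted p = 0.00358). Zscan4c, the copy whose sequence is nearest to Zscan4-ps2, was at 126, 139 and 125 TPM against 9.03, 0.344 and 11.5 TPM (4.57 ± 0.77, adjusted p = 0.00435). Zscan4d, the copy with the most unique sequence, was at 157, 169.9 and 158 TPM against 12.6, 0.271 and 13.6 TPM (4.69 ± 0.87, adjusted p = 0.00619). For these and for the remaining copies every Lin28a-null library was above every WT library (27.7% of all genes tested were higher without overlap), and the Lin28a-null libraries were close together while replicate 2 set the spread among WT libraries.

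The 3 remaining copies behaved alike. Zscan4b was at 63.9, 59.0 and 67.6 TPM in Lin28a-null and 6.05, 0.147 and 6.47 TPM in WT cells (log2 change 4.04 ± 0.68 SE, adjusted p = 0.00413). Zscan4e was at 78.3, 81.3 and 78.2 TPM against 8.38, 0.234 and 10.3 TPM (3.98 ± 0.77, adjusted p = 0.00721). Zscan4f was at 138, 151 and 136 TPM against 11.1, 0.237 and 12.8 TPM (4.59 ± 0.85, adjusted p = 0.00607). Among all genes tested the 6 copies ranked between the 13th and the 36th largest rise. Without WT ES replicate 2 the changes were smaller and still passed the test for all 6 copies, from 2.96 for Zscan4e to 3.72 for Zscan4a (24.1% of genes rose in that fit), with adjusted p-values of 5.12e-06 to 2.18e-05.

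Fibroblast and feeder markers also rose in Lin28a-null cells, 23 of the 25 tested (20.4% of all genes rose). Their median log2 change was 1.85 against 0.02 over all genes, and their summed level was 7274, 5621 and 5397 TPM. None of these markers was at 0 in every library of a cell group. Their part in the Zscan4 result was not tested. The count was again 23 of 25 without WT ES replicate 2 (24.1% of genes rose in that fit), with a median of 2.24. In these bulk libraries, fewer cells of a type and less RNA per cell cannot be told apart.

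In the libraries labelled Lin28b-null the mean Zscan4 level was lower than in WT cells, within the spread of the WT libraries. The mean sum was 7.45 ± 6.91 TPM (SD, n = 3), 5.70-fold lower, and the libraries of the groups overlapped. The ratio was 8.43 without WT ES replicate 2 and 12.3 without Lin28b-null replicate 3, the highest of its group. Zscan4c, the lowest copy there, was at 0.189, 0 and 0.958 TPM against 9.03, 0.344 and 11.5 TPM in WT cells (log2 difference −2.06 ± 0.81 SE, adjusted p = 0.0972). Zscan4a was at 0.753, 0.307 and 1.82 TPM (−1.79 ± 0.80, adjusted p = 0.138). Zscan4d, the highest copy in this group, was at 1.24, 1.21 and 6.00 TPM (−0.96 ± 0.96, adjusted p = 0.495). Lin28b-null replicate 3 was the highest of its group for every copy. By limma 0 of the 6 copies fell (15.1% of the 15526 genes tested fell), and 1 of them, Zscan4c, was under 0.05 before adjustment. No other tool was run.

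That outcome turned on WT ES replicate 2. Without it all 6 copies fell in the libraries labelled Lin28b-null (14.9% of genes fell in that fit). The log2 change was −3.08 for Zscan4c (adjusted p = 0.00193), −2.83 for Zscan4f (adjusted p = 0.00403), −2.80 for Zscan4a (adjusted p = 0.00264), −2.42 for Zscan4e (adjusted p = 0.00598), −2.11 for Zscan4d (adjusted p = 0.0280) and −1.75 for Zscan4b (adjusted p = 0.0144). Zscan4b, Zscan4e and Zscan4f were at 0.647 to 2.45, 0.395 to 2.14 and 0.282 to 2.05 TPM in the libraries labelled Lin28b-null, above the level of WT replicate 2 and below WT replicates 1 and 3 for each copy.

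Set directly against each other, the libraries labelled Lin28a-null and Lin28b-null differed at every copy, and this comparison uses no WT library. All 6 copies were higher in Lin28a-null cells (25.8% of the 15974 genes tested were), and the mean sum was 100.2-fold higher, or 215-fold without Lin28b-null replicate 3. The log2 difference was 6.62 ± 0.24 for Zscan4c (SE, adjusted p = 1.23e-05), 6.52 ± 0.27 for Zscan4a (adjusted p = 1.84e-05) and 6.30 ± 0.31 for Zscan4f (adjusted p = 3.15e-05). These 3 copies held the 3 largest differences among all genes tested. For Zscan4b it was 4.90 ± 0.28 (adjusted p = 5.23e-05), with Zscan4d at 5.64 and Zscan4e at 5.38 between them. Zscan4c was listed at 0 in 1 Lin28b-null library, and its change depends on the pseudocount.

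Induction of let-7 in the ilet7 line was followed by a smaller rise. Of the 6 copies 5 rose with doxycycline, all but Zscan4e, and 0 fell (13.3% of the 15884 genes tested rose and 5.68% fell), and the mean sum went from 79.2 ± 4.47 to 136 ± 15.6 TPM (SD, n = 3 each), a ratio of 1.72. Zscan4a rose the most, from 14.4, 14.6 and 16.2 TPM to 30.4, 40.2 and 42.8 TPM (log2 change 1.26 ± 0.13 SE, adjusted p = 0.00218). Zscan4f rose from 16.4, 15.4 and 16.3 TPM to 24.1, 26.9 and 26.6 TPM (0.66 ± 0.07, adjusted p = 0.00284). Zscan4e was at 8.78, 14.6 and 15.4 TPM before and 14.3, 15.9 and 17.4 TPM after doxycycline (0.31 ± 0.20, adjusted p = 0.330). The libraries of the groups did not overlap for the 5 copies that rose (26.9% of all genes tested were higher without overlap) and overlapped for Zscan4e, where ilet7-Ctrl replicate 1 was low.

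Zscan4c rose from 17.8, 15.6 and 17.3 TPM to 24.5, 25.8 and 31.1 TPM (log2 change 0.65 ± 0.11 SE, adjusted p = 0.00909). Zscan4d rose from 13.0, 12.7 and 12.4 TPM to 18.2, 19.7 and 24.2 TPM (0.66 ± 0.11, adjusted p = 0.0103). Zscan4b rose from 5.12, 4.93 and 6.54 TPM to 8.80, 7.84 and 9.43 TPM (0.57 ± 0.13, adjusted p = 0.0267). The changes of these 3 copies and of Zscan4f thus lay between 0.57 and 0.66. In a limma fit over all 15 ES libraries, which shares 1 spread among the groups, 0 of the 6 passed (8.90% of genes rose there), with 0 under 0.05 before adjustment. Lin28a itself fell with doxycycline, from 20.4 to 24.9 TPM down to 6.26 to 7.32 TPM (−1.61, adjusted p = 5.52e-04). Of 24 fibroblast and feeder markers 14 rose (13.3% of all genes did). Their summed levels were 1711 to 1953 TPM before and 2130 to 2379 TPM after, and their part in the result was not tested.

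The doxycycline effect was smaller than the Lin28a-null effect at each of the 6 copies when the difference between the effects was tested (12.1% of 16085 genes were lower in this contrast). The difference was −4.03 ± 0.99 for Zscan4d (SE, adjusted p = 0.0112) and −3.46 ± 0.77 for Zscan4b (adjusted p = 0.00665), with the other copies between them. Without WT ES replicate 2 it lay between −2.46 for Zscan4a and −2.90 for Zscan4c. The groups of the 2 effects share no library, and the uninduced ilet7 line was not at the mean level of WT cells. Its sum was 1.86-fold higher in the mean (1.26-fold without WT ES replicate 2), and by limma 0 of the 6 copies passed the test in either direction (9.18% of 15693 genes rose and 8.46% fell), with 0 under 0.05 before adjustment. Without WT ES replicate 2, Zscan4c (0.68, adjusted p = 0.0140) and Zscan4f (0.40, adjusted p = 0.0348) rose in ilet7-Ctrl over WT cells (16.8% of genes rose there). In that fit 0 copies fell, and the log2 change was −0.04 for Zscan4d and −0.16 for Zscan4b.

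**Figure D2:**
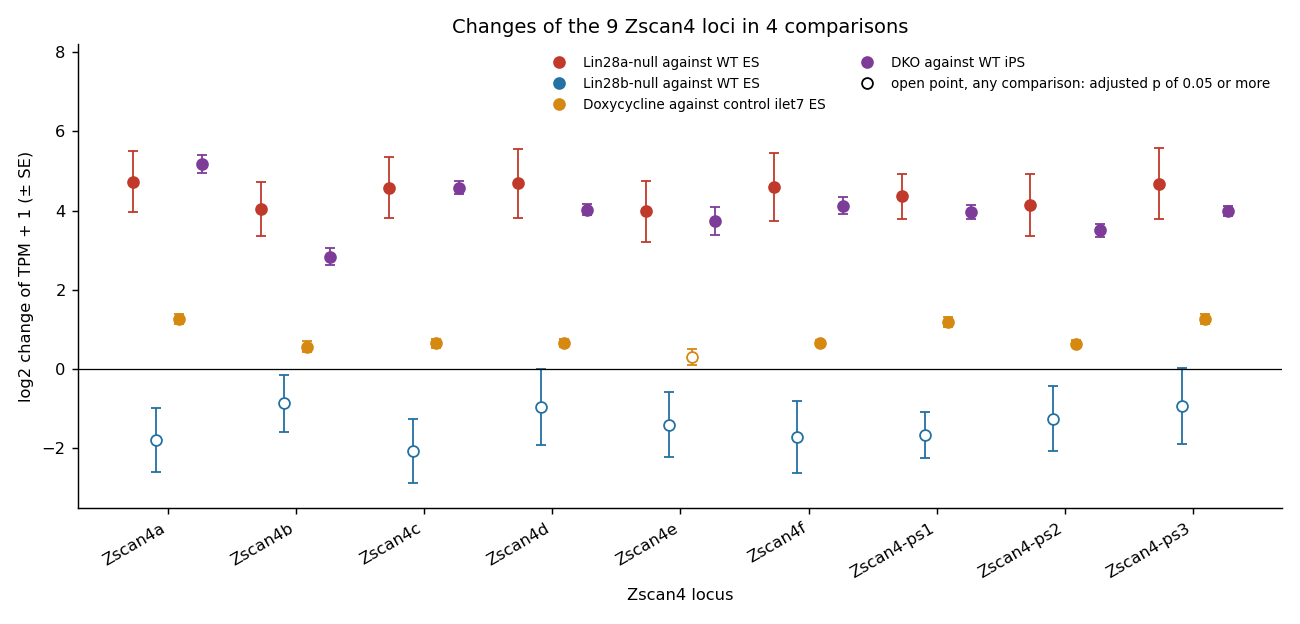
Log2 change of TPM + 1 with its SE for the 6 Zscan4 copies and the 3 further loci in 4 comparisons of 3 against 3 libraries. Filled points have an adjusted p under 0.05. Lin28a-null and DKO changes lie between 2.84 and 5.17, doxycycline changes between 0.31 and 1.26, and the differences in libraries labelled Lin28b-null lie below 0 with open points throughout.

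In iPS cells the Zscan4 level differed between the genotypes by more than the spread of their libraries. All 6 copies rose in libraries labelled DKO and 0 fell (8.77% of the 17557 genes tested rose and 7.51% fell), the mean sum was 237 ± 12.9 TPM against 5.43 ± 1.58 TPM in WT cells (SD, n = 3 each), and the ratio was 43.6. Zscan4a was at 113, 103 and 111 TPM in DKO and 3.01, 1.10 and 2.36 TPM in WT cells, and its log2 change of 5.17 ± 0.23 (SE, adjusted p = 4.98e-05) was the largest of all genes tested. Zscan4c followed as the second largest, at 39.6, 38.3 and 38.5 TPM against 0.549, 0.457 and 1.04 TPM (4.58 ± 0.17, adjusted p = 3.53e-05). Zscan4d was at 48.4, 43.3 and 40.5 TPM against 1.90, 1.86 and 1.57 TPM (4.02 ± 0.14, adjusted p = 2.18e-05). No library of either genotype overlapped the other at any copy (20.7% of genes were higher without overlap).

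The other 3 copies were at or near 0 in WT iPS cells. Zscan4f was at 15.4, 17.6 and 23.3 TPM in DKO and at 0, 0.172 and 0.204 TPM in WT cells (log2 change 4.12 ± 0.21 SE, adjusted p = 7.39e-05). Zscan4e was at 21.8, 10.4 and 21.7 TPM against 0.954, 0 and 0.268 TPM (3.74 ± 0.36, adjusted p = 9.88e-04). Zscan4b was at 7.01, 9.85 and 7.79 TPM against 0.411, 0.118 and 0.317 TPM (2.84 ± 0.21, adjusted p = 2.78e-04). These changes are on the log2(TPM + 1) scale, which understates the change of low genes. Lin28a mRNA fell in libraries labelled DKO (16.0 to 36.2 TPM in WT, 9.51 to 11.6 TPM in DKO, adjusted p = 0.0313) and Lin28b mRNA rose (2.16 to 4.14 TPM in WT, 10.3 to 11.6 TPM in DKO, adjusted p = 0.00403), so the label DKO is not borne out for Lin28b at the mRNA level. Of the 25 fibroblast and feeder markers 7 rose (8.77% of all genes did). Their summed levels were 3860 to 6000 TPM in WT and 6015 to 8675 TPM in libraries labelled DKO, and their part in the result was not tested.

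Lin28a and Zscan4 levels are set side by side for the 15 ES libraries, as a description. The 4 libraries with the lowest Zscan4 sums were the 4 with the highest Lin28a. They were WT replicate 2 (1.82 TPM of Zscan4 and 61.2 TPM of Lin28a) and the Lin28b-null replicates 2 (3.07 and 81.0 TPM), 1 (3.86 and 77.1 TPM) and 3 (15.4 and 66.6 TPM). WT replicate 2 thus resembled the libraries labelled Lin28b-null in these 2 measures rather than its own group. Its Lin28b (5.18 TPM) was near the other WT libraries (3.63 and 4.69 TPM) and below the libraries labelled Lin28b-null (12.5 to 13.8 TPM). Its Dppa2 (48.9 TPM) and summed fibroblast and feeder markers (4295 TPM) lay outside the ranges of the libraries labelled Lin28b-null (81.8 to 124 and 1693 to 2737 TPM). At the other end the order broke, since the ilet7+Doxy libraries had the lowest Lin28a (6.26 to 7.32 TPM) and a fraction of the Zscan4 of the Lin28a-null libraries (14.6 to 21.0 TPM of Lin28a). The 15 libraries share 5 groups, so no correlation over them was tested.

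**Figure D3:**
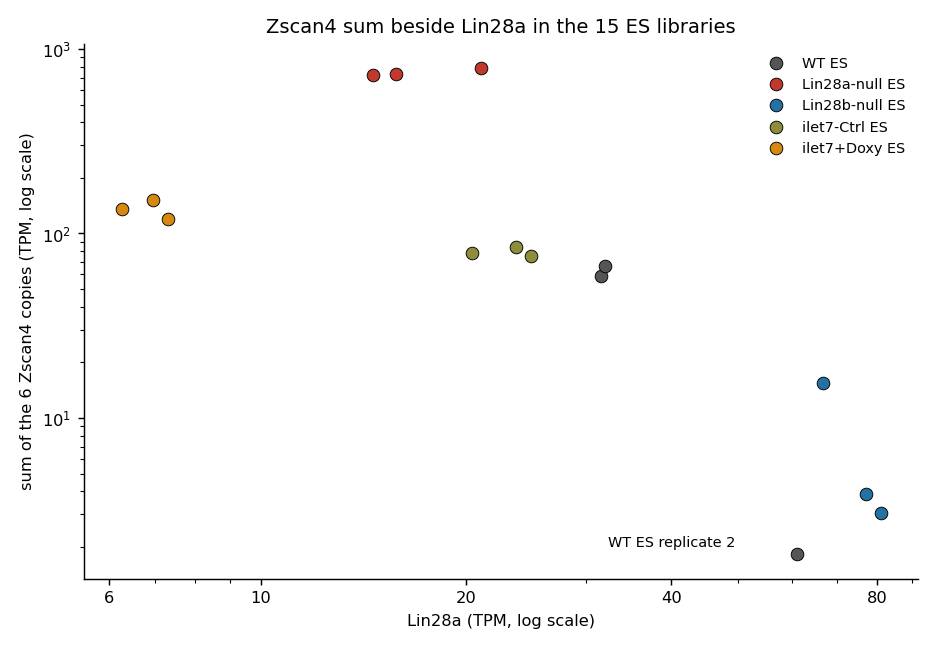
Sum of the 6 Zscan4 copies against Lin28a in each of the 15 ES libraries, both in TPM on log axes, with colour for the group. WT ES replicate 2 (1.82 TPM of Zscan4) lies with the libraries labelled Lin28b-null, and the ilet7+Doxy libraries have the least Lin28a without the most Zscan4.

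The make-up of the Zscan4 signal differed between ES libraries and the iPS libraries labelled DKO. In the 15 cell libraries with a sum of at least 10 TPM, Zscan4a made up 45.8% to 46.2% of the sum in iPS libraries labelled DKO and 11.8% to 29.5% in the 12 ES libraries, without overlap. Zscan4f was the reverse, with 6.27% to 9.58% in DKO iPS and 13.3% to 21.7% in ES libraries. The tables were processed apart and the shares depend on where reads map uniquely, so this is a difference between the tables as deposited. The WT iPS libraries, all under 10 TPM, had 29.7% to 44.0% in Zscan4a, and with sums down to 1 TPM counted WT ES replicate 2 had 32.2%, so that WT iPS and ES libraries overlapped. Within ES cells, Zscan4a, the copy with the largest doxycycline change, made up 18.7% to 19.3% of the sum in ilet7-Ctrl and 25.3% to 29.5% in ilet7+Doxy libraries. Lin28a-null libraries had nearly constant shares, with Zscan4a at 22.8%, Zscan4d at 21.7%, Zscan4f at 19.0%, Zscan4c at 17.4%, Zscan4e at 10.6% and Zscan4b at 8.54% in the mean. The 1 library labelled Lin28b-null with a sum above 10 TPM had 38.9% of it in Zscan4d.

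**Figure D4:**
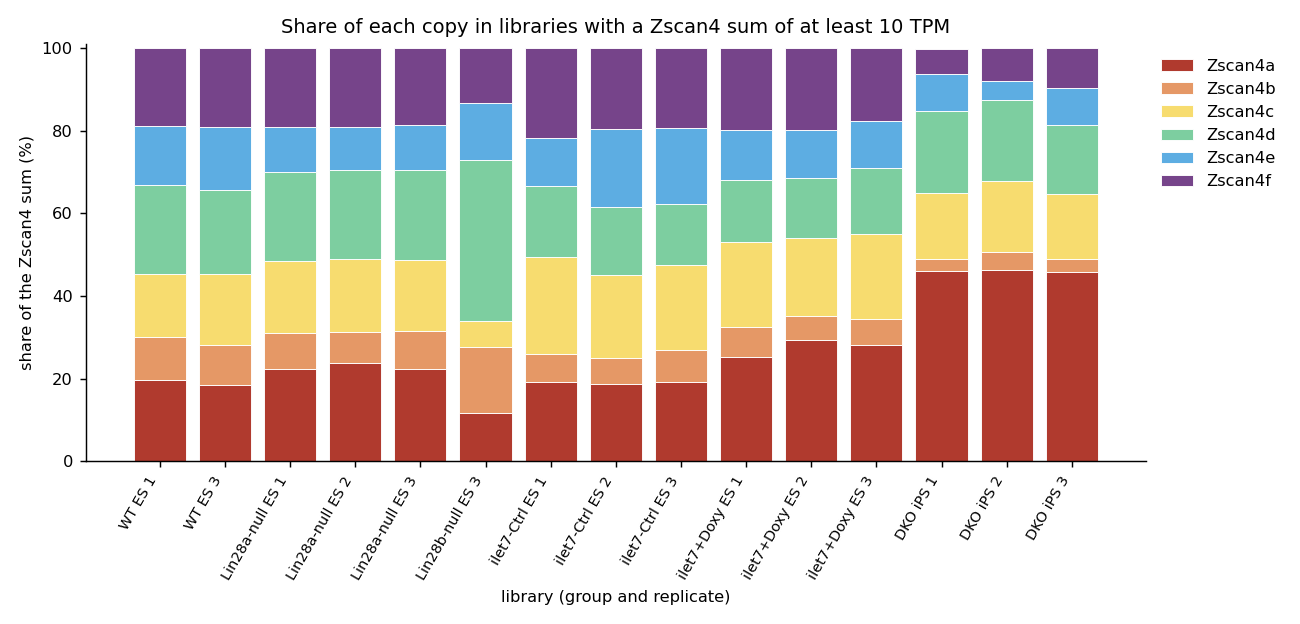
Share of each copy in the Zscan4 sum, in percent, for the 15 cell libraries with a sum of at least 10 TPM, each bar 1 library. Zscan4a takes 45.8% to 46.2% in the DKO iPS libraries and at most 29.5% in any ES library.

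Across libraries the levels of the copies were closely related. Pearson's r between pairs of members on the log2(TPM + 1) scale lay between 0.954 and 0.995 over the 15 ES libraries and between 0.962 and 0.995 over the 6 iPS libraries. The libraries share groups and the copies share sequence, so these values describe the tables only.

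The 3 further loci of the cluster moved as the members did. Zscan4-ps3, at the far end of the cluster, was at 173, 189 and 177 TPM in Lin28a-null cells and at 14.4, 0.344 and 15.7 TPM in WT cells (log2 change 4.68 ± 0.90 SE, adjusted p = 0.00693). Its mean was above that of any member in both groups (179.6 and 10.2 TPM), but in WT replicate 2 it was below Zscan4a (0.586 TPM). Zscan4-ps1 and Zscan4-ps2 rose by 4.36 and 4.13 there. All 3 rose with doxycycline, by 1.19, 0.64 and 1.26 in the order of their numbers, and in libraries labelled DKO, by 3.96, 3.50 and 3.99. By limma 0 of the 3 passed the test in libraries labelled Lin28b-null, although Zscan4-ps1 did not overlap WT cells there (0.128, 0.220 and 0 TPM against 5.24, 0.259 and 4.45 TPM, adjusted p = 0.0716, where 24.2% of all genes tested were lower without overlap). Without WT ES replicate 2 all 3 fell there, with log2 changes of −2.39, −2.28 and −2.13, and in Lin28a-null cells all 3 still rose, by 3.62, 3.10 and 3.49. With the 3 loci added, the sum reached 1060 to 1154 TPM in Lin28a-null and 318 to 337 TPM in libraries labelled DKO.

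**Figure D5:**
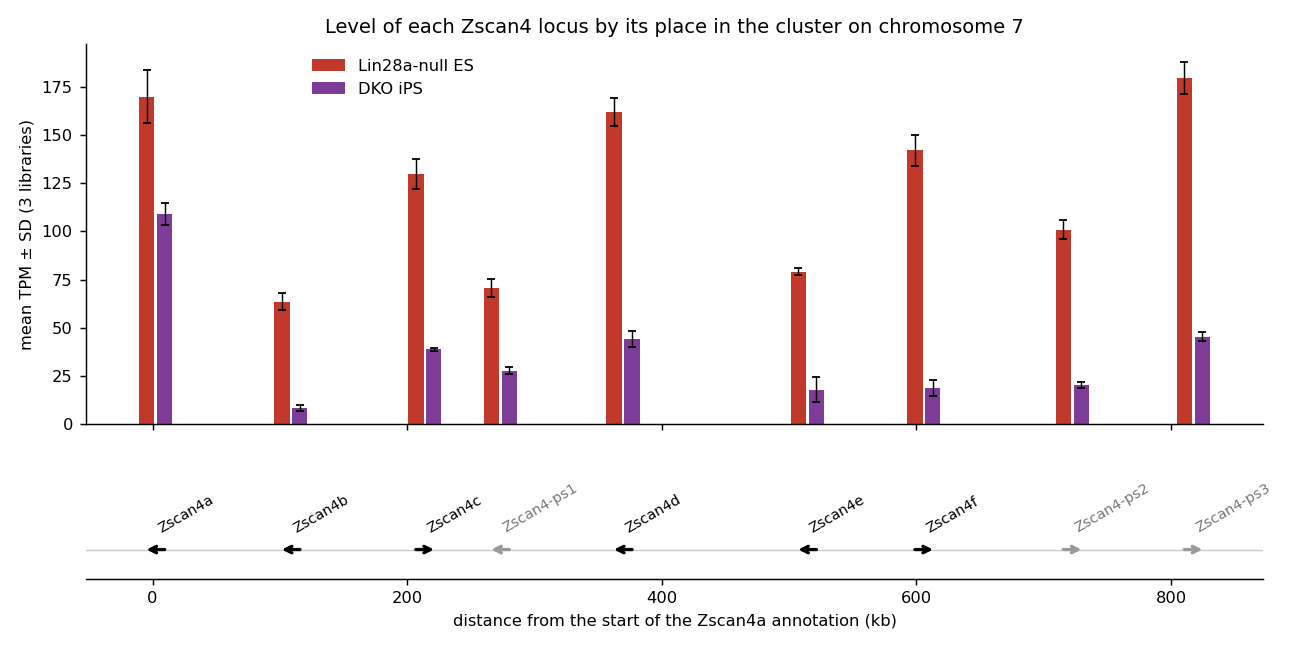
Mean level in TPM, with the SD of 3 libraries, of the 9 Zscan4 loci in Lin28a-null ES and DKO iPS cells, placed by distance from the start of Zscan4a in kb, with arrows for the strand (black, members; grey, further loci). The 2 ends of the cluster, Zscan4a (170.0 TPM) and Zscan4-ps3 (179.6 TPM), are the highest loci in Lin28a-null cells. The same loci have the highest means in DKO iPS cells (109 and 45.4 TPM). Zscan4d (44.1 TPM) is close to Zscan4-ps3 there and above it in DKO replicate 1 (48.4 against 43.2 TPM). A relation of level to position was not tested.

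Outside the cluster no gene could be followed. The 5 nearest protein-coding genes on each side, the vomeronasal receptor genes Vmn1r68 to Vmn1r76 and Nlrp4b, were at most at 0.174 TPM in any library and none reached the test. Among the 44 genes between the Zscan4 loci, 2 reached it in Lin28a-null cells and both rose (20.4% of all genes tested rose). Gm45551 was at 13.2 TPM against 0.288 TPM in the mean (3.53, adjusted p = 2.14e-04). Gm4903 was at 2.48 TPM against a group listed at 0 in all WT libraries (1.78, adjusted p = 0.00111). Both passed the filter only through the Lin28a-null libraries, so a rise was close to fixed in advance, and the others were not tested. Gm45551, the only 1 of the 44 tested in libraries labelled DKO, also rose there (2.92, adjusted p = 3.41e-04, where 8.77% of all genes rose).

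In ES cells, several of the named genes whose levels were most like the Zscan4 sum were on the list of 2C genes followed below. Kdm4dl, AA623943 and Nat8f2 were not on it. Over the 15 ES libraries and 16014 genes, with clone names, predicted models and Zscan4 loci left out of naming (26 of the leading genes), the highest r was that of Pramef25 (0.988), followed by Kdm4dl (0.986), the deubiquitinase gene Usp17lb (0.985), the arginase gene Arg2 (0.984) and Usp17ld (0.983). Tmem92 (0.976), Usp17la (0.969), Usp17lc (0.967), AA623943 (0.965) and Nat8f2 (0.965) came next. After each group mean was taken away, their r was 0.903 to 0.986 over the same 15 libraries. These values lean heavily on WT ES replicate 2, whose sum was 1.82 TPM against 58.8 and 66.9 TPM in its group. Dppa2, with an r of 0.617 over the ES libraries, had 0.994 after this step. No r was taken without that library, so the values do not show likeness within the other groups. The levels of Arg2 followed the Zscan4 order of groups, with means of 41.0 TPM in Lin28a-null, 10.2 in ilet7+Doxy, 5.58 in ilet7-Ctrl, 3.12 in WT and 0.812 TPM in libraries labelled Lin28b-null. Over the 6 iPS libraries, where 769 of 17551 genes had an r above 0.95 in libraries that form 2 groups, genes among the most alike were Akr1c18, Zfp979, Cdhr1 and Zfp980 (0.998 to 0.999). These iPS genes are not on the 2C list.

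Most 2C genes outside Zscan4 rose in the same comparisons, and some of them, such as the Usp17l genes, are near copies of each other and as uncertain singly. Of 36 such genes tested in Lin28a-null cells 34 rose and 0 fell (20.4% and 17.8% of all genes did). Their median log2 change was 3.01 against 0.02 over all genes, beside 4.58 for the Zscan4 copies. The count was 35 of 36 without WT ES replicate 2 (24.1% of genes rose in that fit), with a median of 2.24 beside 3.50. Tcstv1, a 2-cell gene, rose from 0.0735 to 39.5 TPM in the mean (5.23, adjusted p = 6.83e-06) and B020031M17Rik from 0.101 to 44.0 TPM (5.36, adjusted p = 6.83e-06), while AF067061 (0.37, adjusted p = 0.544) and Gm21761 (1.76, adjusted p = 0.152) did not pass. Gm21761 rose when WT ES replicate 2 was left out (0.62, adjusted p = 0.00585). With doxycycline 31 of 35 rose (13.3% of all genes did), with a median of 0.88 beside 0.65 for the Zscan4 copies. They were led by Usp17lc (1.58, adjusted p = 9.10e-04) and Tcstv1 (1.54, adjusted p = 0.00243). In libraries labelled DKO 34 of 34 rose (8.77% of all genes did), with a median of 2.98 beside 4.07 for the Zscan4 copies. They were led by Gm8300 (4.09, adjusted p = 1.91e-05) and Gm21761 (4.06, adjusted p = 2.09e-04). In libraries labelled Lin28b-null 1 of 23 rose and 0 fell (13.4% and 15.1% of all genes did), with a median of −1.23. Without WT ES replicate 2, 0 of 24 rose and 17 fell there (2419 and 2299 of 15392 genes did). The list was made of genes known from 2C cells with earlier results of these data in view. Genes near 0 in 1 group, such as Tcstv1 in WT ES cells, passed the filter only through the group where they were high. How many of the 47 listed genes were tested thus differed between comparisons, and the counts and medians are descriptions.

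Known activators and repressors of Zscan4 were a mixed list. Dux itself, here Duxf3, was listed at 0 in nearly all libraries and reached at most 0.0474 TPM, so that no level of it could be followed. Dppa2, an activator of the 2C program, was at 331, 340.1 and 331 TPM in Lin28a-null cells and 139, 48.9 and 155 TPM in WT cells (1.70 ± 0.40, adjusted p = 0.0145; 1.18 without WT replicate 2). It was also higher in iPS libraries labelled DKO (126 against 58.3 TPM in the mean, 1.11, adjusted p = 4.82e-04) and with doxycycline (71.5 against 56.4 TPM, 0.34, adjusted p = 0.00822). Dppa2 was at 55.0 to 58.2 TPM in ilet7-Ctrl cells and 81.8 to 124 TPM in the libraries labelled Lin28b-null. For its partner Dppa4 the log2 change was 0.35 (adjusted p = 0.0345) in Lin28a-null cells, 0.35 (adjusted p = 0.0729) in libraries labelled DKO and −0.05 (adjusted p = 0.563) with doxycycline.

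Of 40 regulators tested, 14 rose and 3 fell in Lin28a-null cells, 8 rose and 3 fell with doxycycline, 6 rose and 3 fell in libraries labelled DKO, and 2 rose and 5 fell in libraries labelled Lin28b-null. Over all genes, 20.4% rose and 17.8% fell in Lin28a-null cells, 13.3% and 5.68% with doxycycline, 8.77% and 7.51% in libraries labelled DKO, and 13.4% and 15.1% in libraries labelled Lin28b-null. Without WT ES replicate 2, 17 regulators rose and 6 fell in Lin28a-null cells (3860 and 2978 of 16009 genes did). Also without it, 4 rose and 8 fell in libraries labelled Lin28b-null (2419 and 2299 of 15392 genes did). Nelfa, which encodes a subunit of the negative elongation factor and is known to drive 2C genes, rose in Lin28a-null (0.87, adjusted p = 0.00242) and doxycycline-treated cells (0.22, adjusted p = 0.0414) and in libraries labelled DKO (1.43, adjusted p = 2.79e-04). Tet2, which encodes an enzyme that oxidises methylated DNA, rose in Lin28a-null cells (0.91, adjusted p = 0.0270) and with doxycycline (1.26, adjusted p = 0.00259). Myc, whose product represses 2C genes in ES cells, rose both in Lin28a-null cells (2.32, adjusted p = 7.59e-04) and in libraries labelled Lin28b-null (2.55, adjusted p = 1.86e-04). Hdac1, which encodes a histone deacetylase, fell in both (−0.50, adjusted p = 7.61e-04, and −0.68, adjusted p = 4.87e-04).

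Genes of telomere maintenance and meiotic recombination, the processes with which ZSCAN4 is linked, were followed as a list. In Lin28a-null cells 3 of 22 rose and 8 fell (20.4% and 17.8% of all genes did), with a median log2 change of −0.21. The counts were the same without WT ES replicate 2 (3860 and 2978 of 16009 genes rose and fell in that fit). The meiotic cohesin gene Smc1b fell by 2.24 (adjusted p = 1.12e-04), the synaptonemal complex gene Sycp3 by 1.19 (adjusted p = 0.00358) and Dmc1, a meiotic recombinase gene, by 1.16 (adjusted p = 0.00190), while Brca2 rose by 0.88 (adjusted p = 0.00638) and the telomerase gene Tert fell by 0.52 (adjusted p = 0.0169). With doxycycline 2 of 22 rose, Brca2 (0.94, adjusted p = 8.74e-04) and Stag3 (0.38, adjusted p = 0.00513), and 0 fell (13.3% and 5.68% of all genes did). In libraries labelled DKO 3 of 21 rose and 2 fell (8.77% and 7.51% of all genes did). Smc1b and Sycp3 also fell in libraries labelled Lin28b-null (by 2.26 and 2.13, adjusted p = 2.55e-04 and 0.00131).

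Other genes with a SCAN domain were followed in the same way. Of 27 tested 4 rose and 2 fell in Lin28a-null cells (20.4% and 17.8% of all genes did). Without WT ES replicate 2, 6 rose and 2 fell (3860 and 2978 of 16009 genes did). With doxycycline 3 of 28 rose and 0 fell (13.3% and 5.68% of all genes did), and in libraries labelled DKO 1 of 27 rose and 2 fell (8.77% and 7.51% of all genes did). Zscan5b rose in all 3 comparisons, by 2.00 (adjusted p = 3.83e-04), 1.00 (adjusted p = 9.64e-04) and 1.01 (adjusted p = 0.0146), and it also rose in libraries labelled Lin28b-null (1.69, adjusted p = 0.00297), from 3.46 to 13.7 TPM in the mean.

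In the embryos Zscan4 was nearly absent from both pools, each of which is 1 library without a test. The titles decide which pool is the control, because both treatment labels name a knockdown, and the labels give no stage. Lin28a was at 15.9 TPM in the control and 3.03 TPM in the siLin28 pool. Zscan4d was at 0.373 TPM in the control and 1.08 TPM in the siLin28 pool, and it was the only copy above 0 there. Zscan4a (0.637 TPM) and Zscan4c (0.155 TPM) were above 0 in the control pool alone, Zscan4b, Zscan4e and Zscan4f were listed at 0 in both, and the sums were 1.17 and 1.08 TPM. At these levels no direction can be given.

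Some other 2C genes were not at the floor in the same pools. Of the 47 listed genes 29 had a mean of at least 1 TPM over both pools. Of these, 26 were higher by 1 or more on the log2(TPM + 1) scale in the siLin28 pool (8.28% of 14875 genes were). By the same measure 0 were lower (7.31% of genes were), and the median difference was 1.88 against 0.03 over all genes. Genes at or near 0 in the control, such as Pramef25 (29.9 against 0 TPM), passed this filter only through the siLin28 pool. The list was made with earlier results of these data in view, so the count is a description. Arg2 was at 203 against 32.1 TPM, Tcstv3 at 107 against 13.8 TPM, and Usp17lb at 18.9 TPM against a control listed at 0. Arg2 and Usp17lb, both among the genes most like the Zscan4 sum in ES cells, thus had higher values in the siLin28 pool. Of the other such genes on the 2C list, Pramef25, Usp17lc (2.42 against 0 TPM) and Usp17ld (6.47 against 0.488 TPM) were higher too. Usp17la (0 against 0.524 TPM) and Tmem92 (0 against 0.138 TPM) were lower and near the floor. The Zscan4 sum was near 1 TPM in both pools. Trophoblast markers were present in both pools (summed levels 1615 TPM in the control and 1260 TPM in the siLin28 pool), and fibroblast and feeder markers summed to 38.8 and 34.4 TPM, with 9 of the 25 at 0 in each.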

How the data were processed

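The deposited tables hold TPM per gene, which the authors made from bases called with CASAVA 1.8, trimmed with Trimmomatic, aligned to mm10 with HISAT2, cleared of duplicates with Picard and restricted to uniquely mapped reads. StringTie and GENCODE genes gave the TPM, and read counts were not used here. Each table listed 53715 genes, and 53620 matched GENCODE M21 by identifier, which gave coordinates and transcripts. The ES, iPS and embryo tables were tested separately.

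limma 3.58.1 (R 4.3.3) was run on log2(TPM + 1) for each pair of groups, with a variance trend, on genes averaging 1 TPM or more. Its p-values are two-sided and were adjusted by Benjamini-Hochberg across those genes. The script was tested on simulated data. The Zscan4 sum has no p, since its copies share sequence. A group of 3 libraries limits the precision, and TPM gives no depth.

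Members, gene lists and tests were chosen with earlier results of these data known. Named were the members, other Zscan4 loci, Lin28a and Lin28b, up to 4 members per list with the largest change that passed and the strongest opposite one, the 10 (ES) and 5 (iPS) genes most like the sum (1 of the latter is not reported here), and the 5 protein-coding neighbours on each side. Genes named outside this rule (such as Dppa4, Duxf3, Tert, Tcstv3, Gm45551 and Gm4903) were chosen after their values were seen.

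Alternatives were pseudocounts of 0.1 and 0.5, no filter or a mean of at least 5 TPM, median-of-ratios or quantile scaling, 1 fit over all libraries of a table, a fit without the variance trend, leaving out each library, a block for the replicate number, a sum of at least 1 TPM for shares, and Spearman's correlation. Replicate numbers did not pair the libraries. RefSeq start-site windows were searched with Python 3.11.15.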

Additional observations from a re-analysis of the deposited data

Results flagged for a closer look

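Effects of different perturbations on the same copy differed by a test of the difference itself. Between ES cells labelled Lin28a-null and Lin28b-null, which are each compared with WT ES cells, the log2 difference was 6.52 for Zscan4a, 4.90 for Zscan4b, 6.62 for Zscan4c, 5.64 for Zscan4d, 5.38 for Zscan4e and 6.30 for Zscan4f (limma, adjusted p between 1.23e-05 and 1.43e-04, higher in 3 of 3 Lin28a-null libraries for each copy).

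The doxycycline effect minus the Lin28a-null effect was −3.47 for Zscan4a, −3.46 for Zscan4b, −3.92 for Zscan4c, −4.03 for Zscan4d, −3.68 for Zscan4e and −3.94 for Zscan4f (limma, adjusted p between 0.00665 and 0.0124). Groups of 3 libraries are too small for a check of single libraries against their group, so WT ES replicate 2 could only be described.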

How the results depend on the processing

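The Lin28a-null rise, the DKO rise, the difference between Lin28a-null and Lin28b-null cells and the difference between the doxycycline and Lin28a-null effects kept all tested copies past the threshold under every alternative run (with a mean of at least 5 TPM, 5 of 5 tested copies in libraries labelled DKO). The count of copies that fell in libraries labelled Lin28b-null was 0, and became 2 with all libraries in 1 fit and 1 with the replicate block, and ranged from 0 to 6 with a library left out. The count that rose with doxycycline was 5, became 0 with all libraries in 1 fit, and ranged from 4 to 5 with a library left out. Zscan4b passed in 8 of its 15 alternatives and Zscan4e in 0. The count for ilet7-Ctrl against WT cells was 0, became 1 with all libraries in 1 fit, and ranged from 0 to 2 with a library left out. With a library left out, the log2 change there ranged from −0.04 to 1.72 for Zscan4d and from −0.16 to 1.19 for Zscan4b, the negative values being those without WT ES replicate 2. The replicate block changed no other count. The causes of these shifts were not tested. With a minimum sum of 1 TPM, mean shares became 23.4% for Zscan4a, 9.35% for Zscan4b, 18.9% for Zscan4d and 17.0% for Zscan4f in WT ES cells and 19.0% for Zscan4b in libraries labelled Lin28b-null. By Spearman's correlation 6 of the 10 named ES genes stayed among the 36 most alike and 1 of the 5 iPS genes taken by the same rule among the 8 most alike. With a pseudocount of 0.1 the embryo differences were −2.88 for Zscan4a, −1.35 for Zscan4c, 1.32 for Zscan4d and −0.10 for the sum. Read depth is unknown, which limits all values near 0 TPM.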
